A study of Mus musculus with 6 samples.

Results

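A set of 9 genes used as markers of resident testis macrophages was measured in RNA of mouse testis cell fractions. They are Mrc1, Cd163, Lyve1, Timd4, Folr2, Adgre1, Stab1, Maf and Spi1. All 15 probe sets of the array that name 1 of these genes and no other were taken, of 45037 tested, and the 9 genes stood among 18193 with a probe set of their own. Cells of prepubertal mouse testes had been parted by magnetic sorting for the surface glycoprotein Thy1 into a Thy1-positive fraction, enriched for spermatogonial stem cells, and a Thy1-negative fraction. Each fraction had 3 arrays from separate donor preparations, with P1 to P3 for the positive and N1 to N3 for the negative arrays. No agent, transgene or mutant allele is named for any group. Strain and exact age are not given in the sources used here. Both fractions are mixtures of cells, so fewer cells of a type and less RNA per cell cannot be told apart.

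Macrophages of the testis lie in the interstitium beside Leydig cells and along the tubules. They depend on the CSF1 receptor and, as resident macrophages of other organs do, take up debris and spent proteins through scavenger receptors. Spi1 encodes PU.1, the ETS factor that sets up the myeloid lineage, and Maf encodes c-MAF, a large MAF factor of mature macrophages. Mrc1, Stab1, Cd163, Lyve1, Folr2 and Timd4 encode surface receptors that bind sugars, modified proteins, haemoglobin complexes, hyaluronan, folate and phosphatidylserine. Adgre1 encodes F4/80, the adhesion receptor used to stain mouse macrophages.

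The genes split into 5 that rose in Thy1-positive cells and 4 that did not pass the test. Mrc1, Stab1, Adgre1 and Lyve1 had differences above 10-fold, the level the study used (3.32 on the log2 scale), and Spi1 rose from low signal. Folr2 and the brightest of the Maf probe sets were higher on every Thy1-positive array without passing, Timd4 was above low signal on 1 array alone, and Cd163 was at low signal on all 6. Values here are log2(intensity + 1), a difference is Thy1-positive minus Thy1-negative, and SE is that of the limma model with n = 3 arrays per fraction. Adjusted p is from limma with Benjamini-Hochberg adjustment over all probe sets, and a probe set passed below 0.05. Low signal means below the 25th percentile of the arrays, which lay at 2.67 to 2.68. A gene was at low signal in a fraction where the mean of its 3 arrays was below this level.

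By count, 5 of the 15 probe sets were called higher, against 11.8% of all probe sets, and 0 lower, against 11.5%. At an unadjusted p below 0.05 the limma counts were 8 higher, against 18.5% of all probe sets, and 0 lower, against 16.6%. Of the 9 genes, read at the most abundant probe set of each, 5 were called higher, against 16.4% of all genes, and 0 lower, against 13.2%. The median difference of the 9 genes was 2.29, or 2.02 with values at low signal raised to the floor, beside 0.01 for all genes. Of the 15 probe sets, 4 were called higher at 10-fold or more, against 0.424% of all probe sets. On 11 of the 15 probe sets all Thy1-positive arrays lay above all Thy1-negative arrays, as on 24.9% of all probe sets. With each array centred on its median, 9 of the 15 were called, against 57.4% of all probe sets called higher, and 81.4% of all calls were then higher in Thy1-positive cells, against 50.6% without centring. Without P2, 8 of the 15 were called, against 9.09%. No call of a member held without both arrays numbered 3, when 0 member probe sets and 219 of all probe sets were called higher by limma. The differences of the 5 genes were then 5.84 for Mrc1, 5.96 for Stab1, 5.22 for Adgre1, 3.95 for Lyve1 and 2.48 for Spi1.

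**Figure D1:**
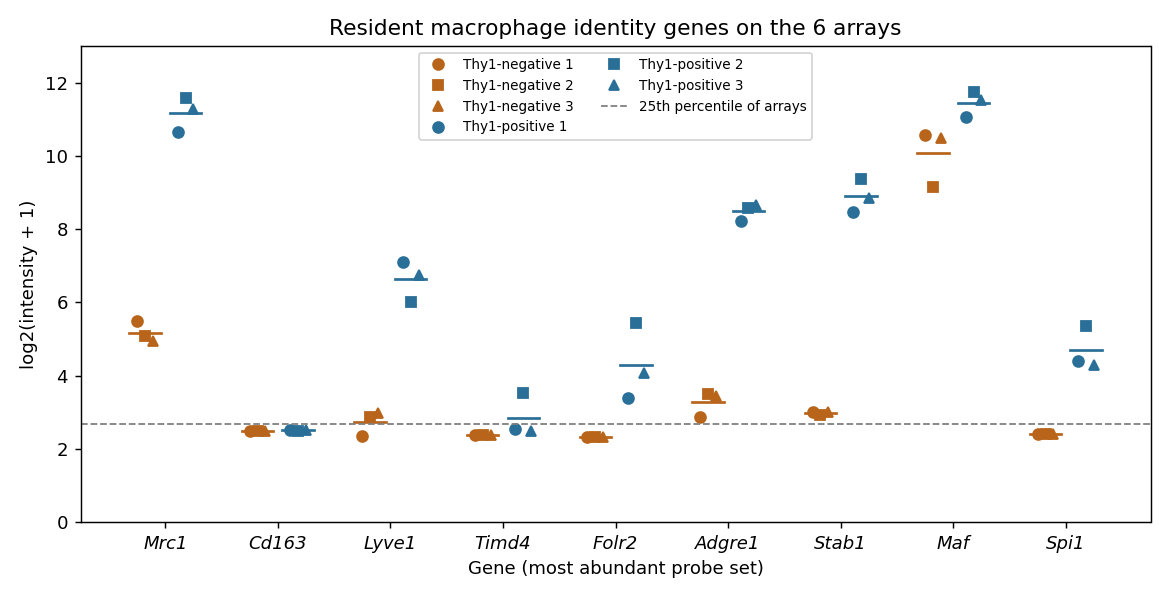
Values of the 9 genes on the 6 arrays, as log2(intensity + 1) of the most abundant probe set, with the mean of each fraction as a bar and the 25th percentile as a dashed line. Mrc1, Stab1 and Adgre1 stand far apart between fractions, Maf is bright in both, and Cd163 lies at 2.49 to 2.51 on all arrays.

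Mrc1 encodes the mannose receptor CD206, which clears glycoproteins with exposed mannose. Its probe set 1450430_at measured 10.66, 11.58 and 11.27 on P1, P2 and P3 and 5.48, 5.08 and 4.95 on N1, N2 and N3. The fractions were far apart, and P2 was the highest array. It was 63.9-fold higher in Thy1-positive cells (6.0, SE 0.29, adjusted p = 0.00133), and the 6 fits that each left out 1 array gave 5.79 to 6.25, all passing. In Thy1-negative cells Mrc1 had intensities of 30.0 to 43.5, against a floor of 5.34 to 5.42.

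Stab1 encodes stabilin-1, a scavenger receptor of macrophages and of sinusoidal and lymphatic endothelium. It measured 8.48, 9.38 and 8.85 on P1, P2 and P3 against 3.01, 2.94 and 3.01 on N1, N2 and N3 (probe set 1450199_a_at). The Thy1-negative arrays hardly varied and lay just above low signal. The difference was 5.92 (SE 0.24, 60.5-fold, adjusted p = 0.000896), with 5.68 to 6.13 when 1 array was left out. With a pseudocount of 16 it was 4.43.

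Cd163 encodes the haptoglobin-haemoglobin receptor. Its single probe set 1419144_at measured 2.51, 2.50 and 2.51 on P1, P2 and P3 and 2.50, 2.49 and 2.50 on N1, N2 and N3. All 6 values were at low signal, and the fractions overlapped (difference 0.00643, 95% interval -0.0170 to 0.0299, adjusted p = 0.705). A level below the floor has no fold, and whether this probe set responds to Cd163 RNA was not tested. Under centring on the array median the value was 0.13 with an adjusted p of 0.00675, a shift equal to that of the median of all genes (0.13).

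The promoters of these 3 genes are shown because Mrc1 and Stab1 had the largest differences among the members and Cd163 none that could be measured. Sequences are from RefSeq on GRCm38.p6, printed 5′ to 3′ on the strand of the gene and ending at the last base before it. Capitals mark GAGGAA, the core that PU.1 binds, or its reverse complement TTCCTC. The windows are chr2:14229164-14229413 (plus strand) for Mrc1, chr14:31168652-31168891 (minus strand) for Stab1 and chr6:124304401-124304635 (plus strand) for Cd163.
Mrc1: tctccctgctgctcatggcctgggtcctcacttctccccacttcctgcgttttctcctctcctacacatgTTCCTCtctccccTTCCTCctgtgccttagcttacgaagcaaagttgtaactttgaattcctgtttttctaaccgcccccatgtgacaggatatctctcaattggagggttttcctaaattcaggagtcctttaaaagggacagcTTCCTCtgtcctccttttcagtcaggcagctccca
Stab1: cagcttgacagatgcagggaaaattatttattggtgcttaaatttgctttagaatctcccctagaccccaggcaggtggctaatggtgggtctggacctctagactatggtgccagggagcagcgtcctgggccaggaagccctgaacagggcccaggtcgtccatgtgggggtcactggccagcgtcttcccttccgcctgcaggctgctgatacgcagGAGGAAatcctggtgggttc
Cd163: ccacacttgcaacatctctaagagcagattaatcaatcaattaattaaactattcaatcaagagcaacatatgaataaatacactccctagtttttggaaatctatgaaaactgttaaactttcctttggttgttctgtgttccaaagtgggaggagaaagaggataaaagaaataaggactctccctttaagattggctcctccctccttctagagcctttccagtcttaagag

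Mrc1 held 3 such matches and Stab1 held 1, while Cd163 held 0 in this window. Counted back from the first base of the gene, those in Mrc1 began 180, 167 and 35 bases before it and that in Stab1 20 bases before it. Over the 250 bases before the transcript start that the promoter table gives, GAGGAA on either strand was found in 2 of the 6 promoters listed for 5 members and in 23.3% of 32851 promoters of that length. The promoters listed for Folr2 and Timd4 held 0, as that of Cd163 did. Mrc1, Stab1 and Cd163 were picked by their differences, so these counts give no test of a link to expression. Each match is a run of letters, and no binding was measured. The promoters of Lyve1, Adgre1, Maf and Spi1 were not analysed here.

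Lyve1 encodes the hyaluronan receptor LYVE-1, known from lymphatic endothelium and from a subset of resident macrophages. The brighter of its 2 probe sets, 1429379_at, measured 7.10, 6.02 and 6.76 on P1, P2 and P3 and 2.36, 2.88 and 2.99 on N1, N2 and N3. The fractions did not overlap, N1 was at low signal, and P2 was the lowest of the Thy1-positive arrays. It rose 14.8-fold (3.89, SE 0.35, adjusted p = 0.00529) from values next to the floor. Its 95% interval of 2.97 to 4.81 reached below 10-fold, and with a pseudocount of 16 in place of 1 the difference was 2.40, also below it (adjusted p = 0.00967). The dimmer probe set, 1453128_at, measured 4.09, 3.44 and 4.30 against 3.09, 2.98 and 2.68. It had the same direction and the same low P2, but did not pass (1.03, SE 0.27, 95% interval 0.32 to 1.73, adjusted p = 0.0570). Without P2 it passed at 1.28 (adjusted p = 0.0232).

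Folr2 encodes folate receptor beta, a marker of resident macrophages in several tissues. It measured 3.40, 5.43 and 4.06 on P1, P2 and P3, against 2.34, 2.33 and 2.34 on N1, N2 and N3 (probe set 1451648_a_at). Every Thy1-positive array was above every Thy1-negative one, all of which were at low signal, and P2 was the highest by a wide margin. The difference of 1.96 (SE 0.56, 95% interval 0.48 to 3.43) did not pass (adjusted p = 0.0722). Without P2 it was 1.39 and passed (adjusted p = 0.0359). That was the only 1 of the 6 fits without 1 array in which it passed. It also passed with arrays centred on their median (2.08, adjusted p = 0.0219) or on housekeeping genes (1.95, adjusted p = 0.0353). It did not pass with a pseudocount of 16 (0.85, adjusted p = 0.166) or with low values raised to the floor (1.62, adjusted p = 0.0791). Quantile normalization gave 2.00 without a call (adjusted p = 0.0722).

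Timd4 encodes TIM-4, a receptor for phosphatidylserine on dying cells. It measured 2.54, 3.52 and 2.50 on P1, P2 and P3 and 2.37 on each of N1, N2 and N3 (probe set 1455318_at). P2 alone was above low signal, at an intensity of 10.4. The difference of 0.48 (SE 0.31, 95% interval -0.33 to 1.30) did not pass (adjusted p = 0.369). Without P2 all remaining arrays were at low signal, and the difference of 0.15 passed (adjusted p = 0.0168) with a spread near 0 below the floor, which gives no fold.

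Adgre1 measured 8.23, 8.59 and 8.67 on P1, P2 and P3 against 2.86, 3.51 and 3.44 on N1, N2 and N3 (probe set 1451161_a_at). It had the smallest spread in Thy1-positive cells among the called members (SD 0.23). The difference was 5.22 (SE 0.23, 37.4-fold, adjusted p = 0.00102), and 5.02 to 5.36 when 1 array was left out. With a pseudocount of 16 it was 3.92. F4/80 staining is the usual way to count testis macrophages in tissue sections, and no such count was used here.

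**Figure D2:**
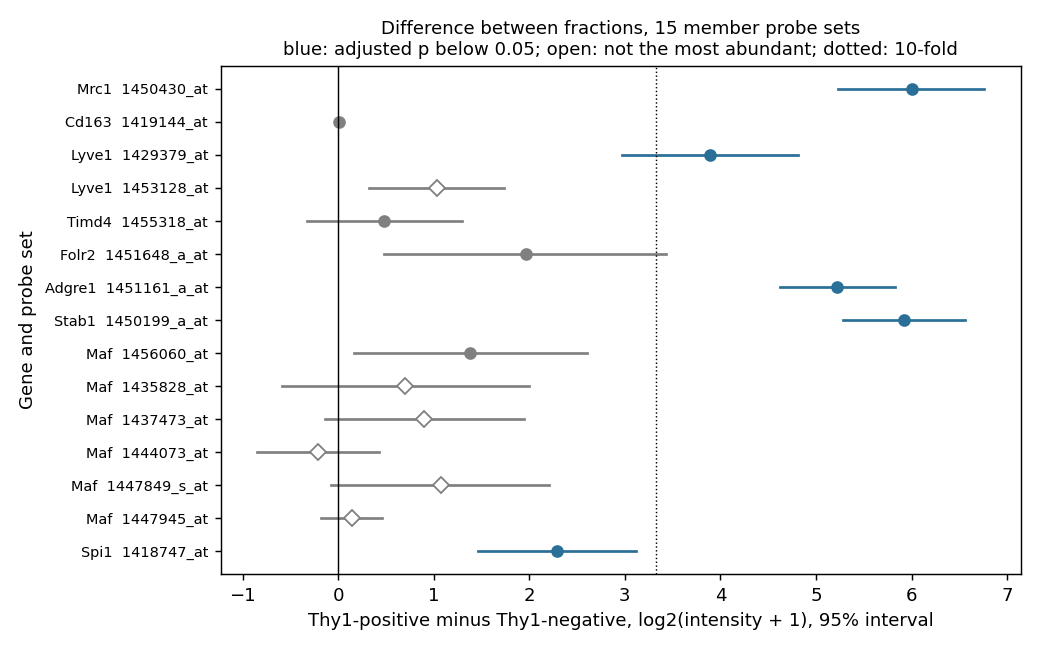
Difference between fractions for each of the 15 probe sets, with its 95% interval from limma. Blue marks an adjusted p below 0.05, open diamonds the dimmer probe sets of Lyve1 and Maf, and the dotted line 10-fold. Mrc1, Stab1 and Adgre1 lie between 5.22 and 6.0, and no interval of a Maf probe set reaches the 10-fold line.

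Spi1 measured 4.41, 5.36 and 4.30 on P1, P2 and P3 against 2.41, 2.40 and 2.41 on N1, N2 and N3 (probe set 1418747_at). All Thy1-negative arrays were at low signal, and all Thy1-positive arrays were above it, P2 the most. Spi1 was at least 4.05-fold higher, taking the floor in place of the Thy1-negative values, with a measured difference of 2.29 (SE 0.31, adjusted p = 0.0125). With a pseudocount of 16 the difference was 1.03. Without N3 it did not pass at the same difference of 2.29 (adjusted p = 0.0564), and it passed without each of the other arrays.

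Maf had 6 probe sets, and 0 were called by limma, with 1 at an unadjusted p below 0.05. The brightest, 1456060_at, measured 11.07, 11.73 and 11.52 on P1, P2 and P3 and 10.56, 9.16 and 10.48 on N1, N2 and N3. The fractions did not overlap, but Maf was bright in both, and N2 lay well under N1 and N3. The difference was 1.38 (SE 0.46, 95% interval 0.16 to 2.60, adjusted p = 0.108). It passed when only probe sets above the median were tested (1.38, adjusted p = 0.0273), with median centring (1.5, adjusted p = 0.0345) and with array weights (1.00, adjusted p = 0.00593). Those weights rested mainly on N3 (8.13) and P3 (4.96), with 0.144 for N2 and 0.232 for P2. The probe set did not pass with a pseudocount of 16 (1.36, adjusted p = 0.117) or with quantile normalization (1.32, adjusted p = 0.124). Probe set 1447849_s_at differed by 1.07 (adjusted p = 0.166), 1437473_at by 0.90 (adjusted p = 0.194) and 1435828_at by 0.70 (adjusted p = 0.417).

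The dim pair of Maf probe sets, 1444073_at and 1447945_at, differed by -0.21 and 0.14, with adjusted p = 0.626 and 0.522. N2 was the lowest Thy1-negative array on all 6 Maf probe sets, with a difference from the mean of N1 and N3 of -1.37 on the brightest and -0.02 on 1447945_at. Without N2, 1447849_s_at passed at 0.62 (adjusted p = 0.0362), and 1456060_at gave 0.92 and did not pass. Leydig and Sertoli cell genes were also lowest in N2. The mean of 4 Leydig cell genes was 9.54 in N2 against 10.68 and 10.22 in N1 and N3, and that of 12 Sertoli cell genes 10.08 against 10.65 and 10.54. The mean of 12 spermatogonial genes was highest there, at 8.74 against 7.93 and 8.31. The part of these cells in the Maf values was not tested.

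**Figure D3:**
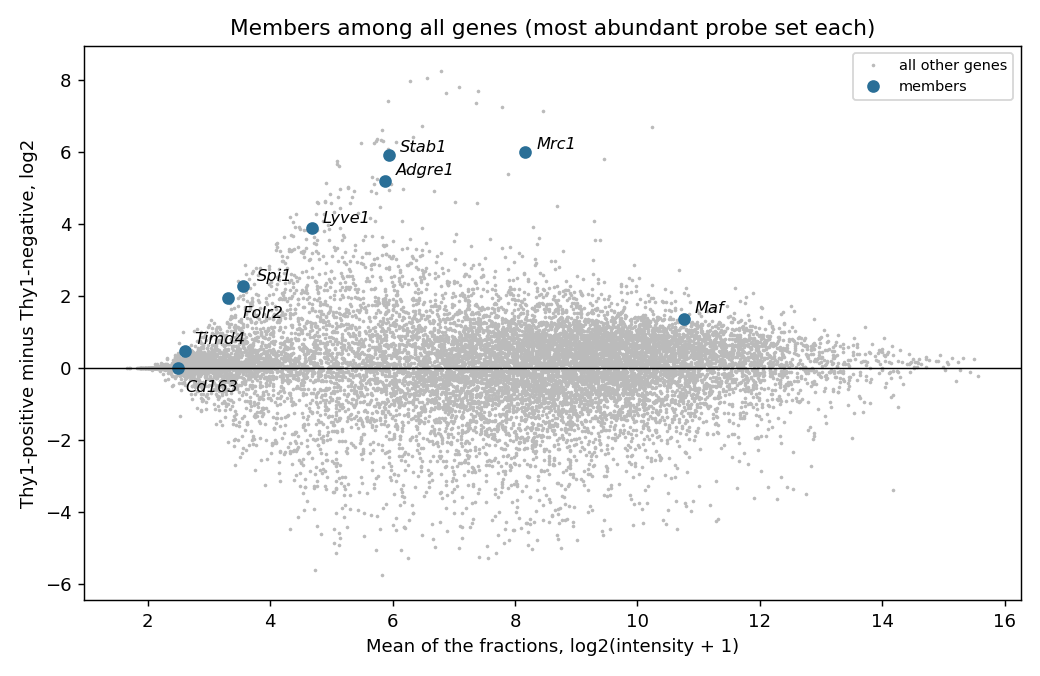
Difference between fractions (vertical) against the mean of both fractions (horizontal), on the log2(intensity + 1) scale, for 18193 genes at their most abundant probe set, members in blue. Mrc1, Stab1, Adgre1 and Lyve1 lie at the upper edge, Timd4 and Cd163 at the dim end, and Maf among bright genes with a modest difference of 1.38.

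Among Thy1-positive arrays the members did not move as 1 block. P2 was the highest for 6 of the 9 genes, as for 14 of the 19 genes shared by most macrophages and 34.1% of all genes. They included Folr2 (1.71 above the mean of P1 and P3), Spi1 (1.01), Timd4 (0.99), Stab1 (0.71) and Mrc1 (0.61). Maf was 0.44 higher there on its brightest probe set. Lyve1 went the other way on both probe sets, with differences of -0.91 and -0.75 from the mean of P1 and P3. Adgre1 differed by 0.14. The 19 genes shared by most macrophages had a median of 0.19 for the same contrast and all genes one of -0.01. Genes of Sertoli cells were also higher in P2, with a list mean of 7.55 against 6.04 and 6.22 in P1 and P3, as were those of peritubular myoid cells (7.30 against 6.84 and 6.88). The other leukocyte list was lowest in P2 (5.54 against 6.28 and 5.85). With 1 array this pattern has no test, and its relation to cell content was not tested.

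**Figure D4:**
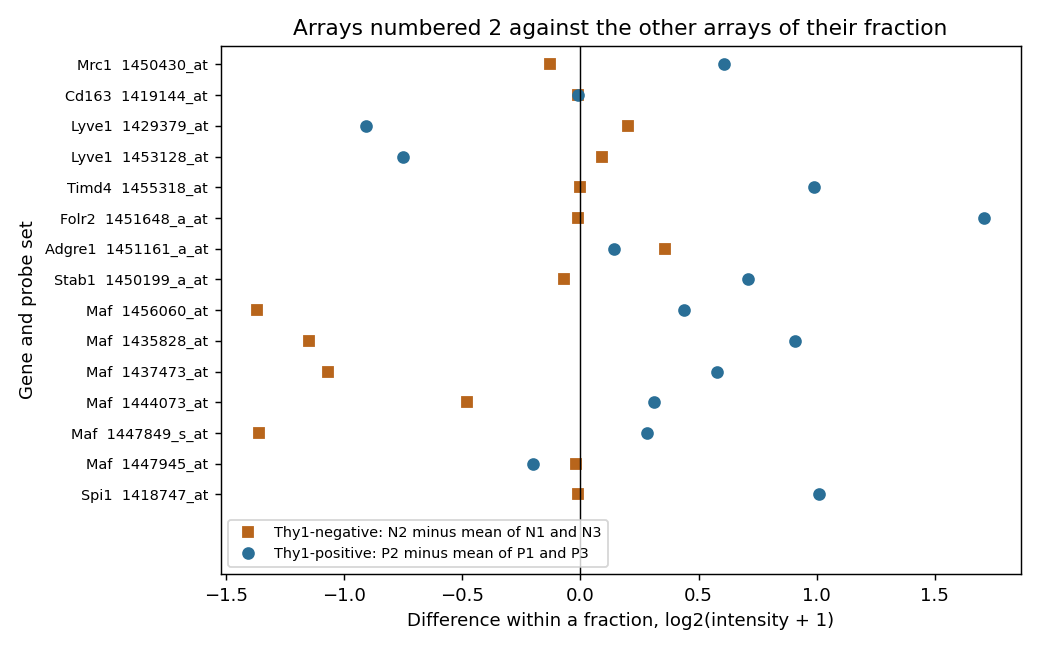
Log2 difference of the array numbered 2 from the mean of the other arrays of its fraction, for each member probe set. Blue circles (P2) lie to the right for Folr2, Spi1 and Timd4 and to the left for both Lyve1 probe sets, and orange squares (N2) lie to the left for Maf.

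The other macrophage genes set these values in context. Of the 55 named non-members that were called, 35 passed in all 6 fits without 1 array and 15 passed in 3 or fewer. Among the 15, Zeb2, Stab2, Itgb3, Mfge8, Slc40a1 and Cyp17a1 passed in 1 of the 6. Of 19 genes shared by most macrophages, all 19 rose, by a median of 5.68, or 5.31 with values at low signal raised to the floor. Among them were the protease gene Ctss (7.82), the complement gene C1qb (7.70), the adaptor gene Tyrobp (7.66) and C1qa, at least 195-fold higher from low signal. The mean of this list was 8.98 to 9.26 on the Thy1-positive and 3.87 to 4.0 on the Thy1-negative arrays. Itgam, the integrin CD11b, rose by 2.58 (SE 0.12, adjusted p = 0.00133). Thy1 itself, the target of the sort, was at least 11.4-fold higher (3.72, SE 0.19, adjusted p = 0.00151), and 9 of 12 spermatogonial genes rose beside the macrophage genes, led by Lhx1 (3.68), Ret (3.62), Pou5f1 (3.61) and Gfra1 (3.47).

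Of 13 lineage regulators and growth factors, 4 rose and 1 fell. Csf1r, the receptor on which macrophages depend, rose by 3.74 on its most abundant probe set and by 6.75 on another, and was at least 367-fold higher on the third, which was at low signal in Thy1-negative cells. The transcription factor genes Tfec (2.66), Irf8 (2.58) and Irf5 (2.18) rose, as Spi1 did. Zeb2, a zinc finger repressor of many cell types, fell on 1 probe set (-1.96, SE 0.42, adjusted p = 0.0338), and its 4 other probe sets were not called. The ligands of Csf1r gave no call, with Csf1 at -0.85 (SE 0.59, adjusted p = 0.414) and Il34 at low signal in both fractions (2.31 and 2.30).

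Of 18 other scavenger and engulfment receptors, 6 rose and 4 fell, with a median of 0.03. Cd36, a scavenger of oxidised lipids, rose by 5.13, and Clec7a, the beta-glucan receptor, by 2.27. Other Cd36 probe sets gave 3.11, which passed, and 0.12 next to the floor, which did not. The lectin gene Clec10a was at least 9.16-fold higher from a Thy1-negative mean at low signal (2.65), though N2 and N3 measured 2.81 and 2.82. Stab2, the closest relative of Stab1, rose by 3.05 with a wide spread in Thy1-negative cells (SD 1.25, adjusted p = 0.0383). Folr1, the epithelial relative of Folr2, fell by 3.17 (adjusted p = 0.00906), and the kinase gene Tyro3 fell by 2.95 (adjusted p = 0.0101). The other Tyro3 probe set was lower without passing (-1.89, adjusted p = 0.0619).

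Of 12 genes that act beside TIM-4 in engulfment, 4 rose and 2 fell. The GTPase gene Rac2 (3.57) and its activator Dock2 (3.34) rose, with smaller increases of Itgb3 (0.72) and of the bridging protein gene Mfge8 (0.64). The other probe sets of Rac2 (0.15) and Dock2 (0.00 and 0.04) were at low signal in both fractions and were not called. The bridging ligand Gas6 (-1.96) and the integrin Itgav (-1.80) fell, and passed in 2 and 3 of the 6 fits without 1 array. No other Itgav probe set was called, the brightest of them at -0.75 (adjusted p = 0.217). Of 11 genes of haem and iron handling, the pathway fed by CD163, 4 rose and 2 fell. Those that rose were Slc11a1 (2.77), haem oxygenase Hmox1 (2.28), the iron exporter Slc40a1 (0.90) and ferritin Fth1 (0.36), while ceruloplasmin Cp (-1.67) and Blvra (-0.96) fell.

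On a list of monocyte, MHC class II and dendritic cell genes, 7 of 13 rose and 1 fell, with a median of 1.85. Those that rose included Cd52 (6.44), the invariant chain Cd74 (at least 28.2-fold, from low signal), H2-Aa (4.48) and the monocyte chemokine receptor Ccr2 (3.84). Other Ccr2 probe sets gave 3.23, which passed, and 0.35 and 0.02, which did not. Zbtb46 fell (-1.65) and passed in 2 of the 6 fits without 1 array. The dendritic cell genes Itgax (0.63), Flt3 (-0.30) and Cd209a (0.00) did not pass, and neither did Ciita (0.00) and Chil3 (0.49). Among 14 genes typical of macrophages in other organs, 3 rose and 1 fell, with a median of 0.00. The purinergic receptor P2ry12 was at least 13.5-fold higher from low signal, Sall1 rose by 2.91 and the lectin gene Cd209f by 0.58, and Gata6 fell by 4.49. Sall1 and Cd209f each passed in 2 of the 6 fits without 1 array. The other Sall1 probe set did not pass (1.81, adjusted p = 0.129). Gata6 was bright in Thy1-negative cells (10.65, 9.76 and 10.24 on N1, N2 and N3). Which cells gave the Gata6 and Sall1 signal was not tested.

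Because Lyve1 and Stab1 also mark endothelium, 15 endothelial genes were read beside them. Of these, 2 rose, 2 fell and 11 did not pass, with a median of 0.08. The list mean was 4.87 to 5.04 on the Thy1-positive and 4.80 to 4.86 on the Thy1-negative arrays. Stab2, which rose by 3.05, was counted with the scavenger receptors and is not among the 15. Prox1, the factor that defines lymphatic endothelium, measured 3.16 and 3.10 and did not pass (adjusted p = 0.182). Pecam1 measured 3.24 and 2.90 (adjusted p = 0.468) and Cdh5 5.76 and 6.17 (adjusted p = 0.653), and these did not pass either. Prox1 and Pecam1 lay next to the floor in both fractions, with intensities of 7.39 to 8.17 and 5.45 to 11.3. The other Prox1 probe sets were not called. Whether the Prox1 and Pecam1 probe sets respond to their RNA was not tested. Plvap (3.21) and Tek (1.28) rose, and Sox18 (-2.25) and Pdpn (-1.89), which Sertoli cells and fibroblasts can also express, fell. Plvap passed in all 6 fits without 1 array, Pdpn in 4, and Tek and Sox18 in 2 each. Of 15 genes of other leukocytes, 7 rose, among them the mast cell proteases Cpa3 (at least 71.8-fold, from low signal) and Mcpt4 (5.00), Cd3g (4.28) and Nkg7 (at least 8.93-fold, from low signal). Cpa3 was at low signal by its mean, with 3.10 on N2. The 7 also count Cd3d (2.66), Tpsb2 (3.27) and Mpo, called at a difference of just 0.07 (adjusted p = 0.0180). The 8 that did not pass were Cd3e (0.31), Ncr1 (0.18), Cd79a (0.11), Ms4a1 (0.14), S100a8 (1.15), S100a9 (1.81), Ngp (1.00) and Camp (0.77). Sertoli cell genes fell in 11 of 12 cases, among them Amh (at least 29.2-fold lower) and Fshr (at least 26.9-fold lower), both at low signal in Thy1-positive cells. Peritubular myoid genes fell in 4 of 6 cases, among them Myh11 (-3.19) and Acta2 (-2.86), and 1 of 4 Leydig cell genes fell, Cyp17a1 (-1.46).

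**Figure D5:**
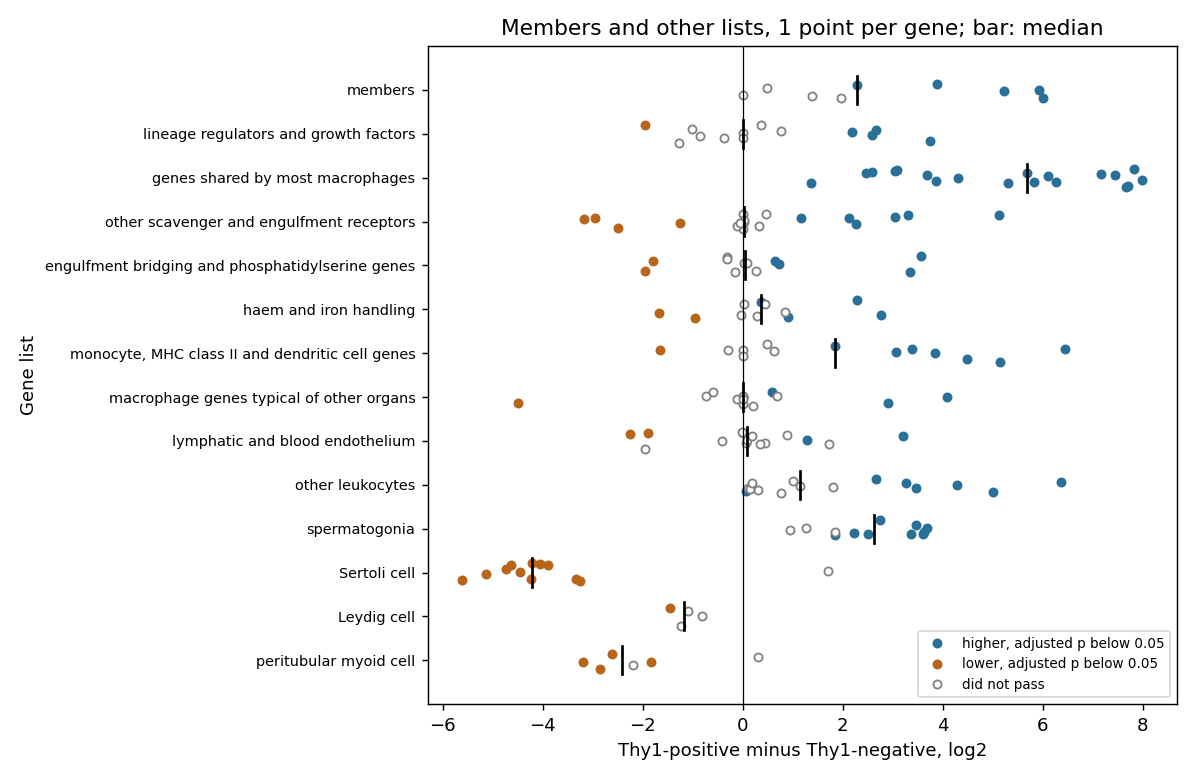
Difference between fractions on the log2 scale for each gene of the members and of 13 other lists, 1 point per gene at its most abundant probe set, with the median as a bar. The 19 shared macrophage genes all lie to the right, and the members reach from Cd163 at 0 to Mrc1 at 6.0.

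The genes most like the members were sought by the root mean square distance of centred log2 values over the 6 arrays from the mean profile of the 9 genes. That profile was 1.22, 1.85 and 1.45 on P1, P2 and P3 and -1.5, -1.58 and -1.44 on N1, N2 and N3. The nearest were the purinergic receptor gene P2ry13 (distance 0.126, difference 2.99) and Nrros (0.129, 2.87). They were followed by the Fc receptor gene Fcgr1 (0.136, 3.09), the ficolin gene Fcna (0.153, 2.79) and Ncf1, a subunit of the phagocyte oxidase (0.157, 3.12). As the fractions set most of this profile, a small distance says mainly that a gene differed by about 3 on the log2 scale.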

How the data were processed

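For 6 Affymetrix arrays the authors deposited linear intensity values, 1 for each probe set. Per the submitters' processing notes the tool was GCRMA. The labels' descriptions instead name scaling to a target of 150, which the values do not carry (trimmed means 287 to 293), so how these values were made stays unknown here. Of 45101 probe sets, 64 controls were left out. Platform annotation gave 1 gene for 34945 probe sets, several for 932 and none for 9160. The 9 members matched a RefSeq table of GRCm38.p6 by Entrez identifier.

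Intensities were put on the log2(intensity + 1) scale without normalizing again. Low values were not filtered, so all 15 member probe sets were tested. Fractions were compared with limma 3.58.1 in R 4.3.3, with fraction as the single term, and 2-sided tests. For a gene at low signal in 1 fraction, values of that fraction under the 25th percentile were raised to it, and the fold is given as a bound. Detection calls were not used here. The number of arrays limits the precision.

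The members, gene lists, tests and alternatives were chosen with earlier results of these data known. Named genes were the members, Thy1, a set of others whatever their values (1 of which is not reported here), up to 4 increases and 2 decreases per list, and the 5 nearest profiles. The fit was tested on simulated data.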

Additional observations from a re-analysis of the deposited data

How the results depend on the processing

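Over 17 alternative settings the member probe sets kept their direction, except the dim Maf probe set 1444073_at, which ranged from -0.37 to 0.0211 when 1 array was left out (0.0211 without N3) and was 0.0720 without both arrays numbered 3. Array weights gave 11 higher and 1 lower member probe sets, with 13345 higher and 10596 lower over all probe sets. These weights were 8.13 for N3 and 4.96 for P3, and 0.919 or less for each other array. Centring on the array median gave 9 member probe sets and 8 member genes higher, with 25863 higher over all. Leaving out both arrays numbered 3, an alternative chosen after seeing the data, gave 0 member probe sets, 0 member genes, 17 of the other macrophage-related genes (47 otherwise), and 219 higher and 144 lower over all. The labels number the arrays 1 to 3 in both fractions, but deviations of same-numbered arrays correlated at -0.192, -0.167 and -0.0069, and the arrays were treated as unpaired, which the labels do not settle. With the replicate block, 3 member probe sets, 3 member genes, 28 other macrophage-related genes and 746 higher and 485 lower probe sets were called; Lyve1 (3.89, adjusted p = 0.0739) and Spi1 (2.29, adjusted p = 0.0847) lost theirs. Leaving out 1 array gave 4 to 8 higher and 0 lower member probe sets, 4 to 7 member genes and 38 to 47 other macrophage-related genes. Over all probe sets these fits gave 1639 to 6790 higher and 1538 to 6214 lower. Il34, at low signal, turned to -0.00153 with housekeeping centring and -4.78e-05 with quantile normalization. Of 247 values of member probe sets under an alternative, 215 kept their direction and side of the threshold, 22 gained a call and 8 lost one; of 1012 for other named genes, 849, 8 and 153 did. The causes were not tested. Values near the floor limit the folds of Spi1, Folr2, Timd4, Lyve1, Stab1 and Adgre1.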

Other observations

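In the 250 bases before the start, TGCTGA, part of the site of large MAF factors, stood on either strand of 4 of the 6 listed promoters of members (both of Folr2, and those of Timd4 and Stab1) and of 16.1% of all promoters. TGTGGT, the core of RUNX sites, stood in 1 of them (Folr2) and in 14% of all. The longer GAGGAAGT stood in 0 of them and in 2.44% of all. Of the genes that hold TGCTGA, Stab1 passed the test and Folr2 and Timd4 did not.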
